A study of Mus musculus with 33 samples.

Results

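The C1q macrophages of bone after IIA injection were 416 of the 22362 cells kept in 1 pooled mouse bone library, and of 77728 cells kept in the whole series. Members were chosen by measured values of these cells: a cell was counted when it held at least 2 UMIs (counted RNA molecules) of each of C1qa, C1qb and C1qc and none of the B cell gene Cd79a or the T cell gene Cd3e. The pool joined 12 hashtagged bone samples, a biotin positive and a biotin negative one from each of 6 numbered injections. The injection is named only IIA in the labels, where other samples of the series have intracardiac injection, and the sources used here do not give what was injected or the strain, genotype or age of the mice. All 12 samples were taken after an overnight exposure to the substrate of SAMENT, a niche-labelling method that leaves biotin on labelled cells, and the tissue was digested with collagenase before biotin positive and negative cells were sorted apart. The comparison of both sorts asks which macrophages lay in the labelled niche. The labels number the injections without saying that each was 1 mouse, so p-values measure the spread between these samples. The 2 sorts of an injection are called positive 1 and negative 1 here, and likewise to 6.

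C1q is the recognition molecule of the classical complement pathway, and its 3 chains come from 3 neighbouring genes that macrophages, unlike most blood cells, transcribe together. C1q binds immune complexes and dying cells and helps macrophages clear them. Macrophages of bone marrow remove neutrophils and recycle iron from red cells.

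Markers that the rule did not use were also high. C1qa, C1qb and C1qc were the rule, so their levels of 1539, 1736 and 1636 CPM (a gene's UMIs scaled to 1000000 UMIs) are a description, beside 7.14, 9.15 and 7.72 CPM in all other kept cells. The macrophage marker list held 10 further genes, all detected in members and all at a higher level there than in other cells, and they summed to 7401 CPM in members and 664 CPM in other cells. Among them, Csf1r, the receptor for the macrophage growth factor CSF1, was at 296 CPM in members and 43.1 CPM in other cells, and Cd68, a lysosomal macrophage protein, at 343 and 24.2 CPM. A monocyte gate, 1314 cells of the pool with Csf1r and Ccr2 and without C1q, served for comparison, and its contrast with members in C1q and Ccr2 was set by the gates. Among the genes most concentrated in members were Fcna, a soluble pattern-recognition protein, the chemokines Ccl8 and Ccl12, the folate receptor Folr2 and Ms4a7, with 117, 102, 90.8, 88.1 and 79.6 times their level in other cells. A UMI of Mrc1, the mannose receptor of macrophages, was found in 81.7% of members, against 1.41% of cells with 2 or more Cd79a UMIs (B cells) and 4.87% of the monocyte gate, at median depths of 6701, 1801 and 6389 UMIs. Esr1, the estrogen receptor gene, was at 28.1 CPM in members and 39.8 CPM in other cells.

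The gate cut through a continuous range. A lowest C1q count of 2 or 3 placed 52 and 45 cells just inside the gate, and a lowest count of 1 placed 83 cells just outside. Mrc1 was at 794 CPM in cells with a lowest count of 2, 733 CPM with 3 and 868 CPM with 1, so the cells just outside resembled those just inside in this gene. Apoe, the carrier protein of lipoproteins, was at 2895, 3055 and 1775 CPM in the same order.

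The 3 C1q genes lie side by side on the minus strand of chromosome 4, within 18.7 kb, from 136880129 to 136898803 of mm10. The RefSeq promoter table (build GRCm38.p6, 250 bases before to 50 after a start) held a window for 3 of 6 genes looked up, C1qb, C1qc and Mrc1. Their windows are shown because C1qb and C1qc mark these cells together and Mrc1 was a gene that differed between the sorts. Capitals mark the letters GAGGAA on either strand (read as TTCCTC on the other), the core bound by the myeloid factor PU.1. C1qb and C1qc held 1 match each and Mrc1 held 3, and 28.3% of the 32851 windows in the table held at least 1. The C1qb window is chr4:136886151-136886450, minus strand, the C1qc window is chr4:136892865-136893164, minus strand, and the Mrc1 window is chr2:14229164-14229463, plus strand.
C1qb: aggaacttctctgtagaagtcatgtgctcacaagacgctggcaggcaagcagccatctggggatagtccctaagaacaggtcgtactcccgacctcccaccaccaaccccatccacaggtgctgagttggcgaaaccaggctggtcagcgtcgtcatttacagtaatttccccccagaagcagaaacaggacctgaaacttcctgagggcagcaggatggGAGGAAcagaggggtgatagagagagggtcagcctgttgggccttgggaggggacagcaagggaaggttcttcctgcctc
C1qc: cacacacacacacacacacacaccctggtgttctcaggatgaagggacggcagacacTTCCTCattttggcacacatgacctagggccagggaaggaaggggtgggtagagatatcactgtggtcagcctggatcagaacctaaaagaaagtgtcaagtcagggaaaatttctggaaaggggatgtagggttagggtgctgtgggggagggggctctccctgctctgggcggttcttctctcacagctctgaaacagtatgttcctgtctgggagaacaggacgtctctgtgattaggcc
Mrc1: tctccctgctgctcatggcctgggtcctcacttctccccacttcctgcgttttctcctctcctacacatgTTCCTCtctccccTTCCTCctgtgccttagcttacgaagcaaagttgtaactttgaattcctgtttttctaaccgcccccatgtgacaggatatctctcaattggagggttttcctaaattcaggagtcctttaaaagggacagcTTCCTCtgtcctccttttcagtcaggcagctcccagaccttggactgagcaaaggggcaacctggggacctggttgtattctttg

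C1q macrophages were concentrated in the biotin positive sort. They made up 4.96%, 25.4%, 16.0%, 6.83%, 2.29% and 3.61% of kept cells in positive 1 to 6 (21, 123, 153, 17, 49 and 23 cells). In negative 1 to 6 the counts were 0, 12, 0, 13, 1 and 4 cells, and the shares 0%, 0.446%, 0%, 0.423%, 0.0287% and 0.121%. A count of 0 in negative 1 and negative 3 allows a share of up to 0.115% and 0.129% by a limit of 3 counts, and of 0.142% and 0.159% by the two-sided 95% Clopper-Pearson interval. No negative sample reached the lowest positive one. The mean share was 9.85% ± 9.03 (SD, n = 6) in the positive sort and 0.170% ± 0.210 (SD, n = 6) in the negative sort, a difference of 9.68 percentage points (exact permutation test, two-sided, p = 0.00216, the smallest that 924 assignments can give). The paired sign-flip test over the 6 injections gave p = 0.03125, the smallest that its 64 exact assignments can give, with the positive sort higher in 6 of 6. The intervals drawn with the shares (95%, Clopper-Pearson), and the limits for counts of 0, cover counting error only.

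**Figure D1:**
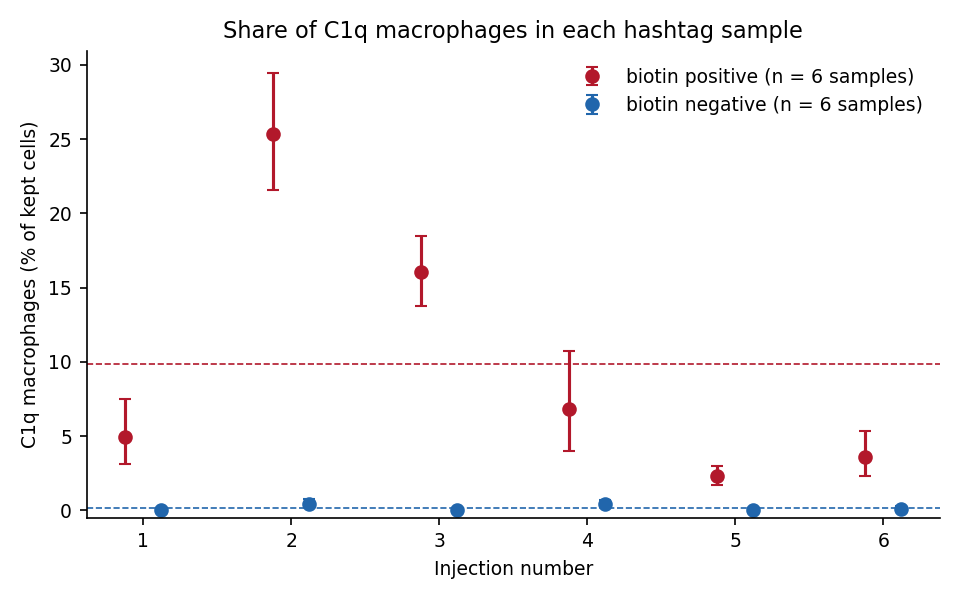
Share of C1q macrophages among kept cells (percent, vertical axis) for each injection number (horizontal axis), biotin positive in red and biotin negative in blue. Bars are 95% Clopper-Pearson intervals and dashed lines the means of 6 samples. Positive 2 and positive 3 are highest at 25.4% and 16.0%, and every negative sample lies under 0.5%.

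Monocytes had the opposite distribution. Cells of the monocyte gate made up 3.26% ± 1.11 of the positive and 6.46% ± 1.35 of the negative samples (SD, n = 6 each), a difference of -3.19 percentage points (exact permutation test, two-sided, p = 0.00216). Among cells with a Csf1r UMI, C1q macrophages made up 33.1% ± 16.1 in the positive and 0.978% ± 1.12 in the negative sort (SD, n = 6 each). Granulocyte RNA was common in members: 303 of 416 held 2 or more UMIs of 7 neutrophil genes (Ly6g, Camp, Ngp, Ltf, Retnlg, Elane and Mpo), and S100a8 was at 5326 CPM in members, 10192 CPM in B cells and 65892 CPM in all other kept cells. Without those 303 members the difference in share was 2.65 percentage points, with the same p of 0.00216 in the exact permutation test.

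Members with the gene Negr1 stood apart. Negr1, a neuronal adhesion molecule better known from brain, was held at 3 or more UMIs by 36 members, a cut chosen after the values were seen, so their levels and shares are a description with no test. They were 17 of the 30 members of the negative sort and 19 of the 386 of the positive sort. By sample they were 7 of 12 in negative 2, 9 of 13 in negative 4 and 8 of 17 in positive 4, against 2 of 21, 3 of 123, 2 of 153, 4 of 49 and 0 of 23 in positive 1, 2, 3, 5 and 6. The C1q genes were at 1696 (C1qa), 2371 (C1qb) and 2088 CPM (C1qc) in these cells, and at 1527, 1684 and 1599 CPM in the other 380 members. Fcgr4, an activating Fc receptor, was at 1604 CPM in Negr1 members and 147 CPM in the others. Adgre4 and Cd300e, both markers of patrolling monocytes, were at 305 and 341 CPM against 13.2 and 3.01 CPM. Fabp4, a fatty acid carrier, and Pparg, the nuclear receptor that drives it, were at 840 and 400.0 CPM against 121 and 70.7 CPM. By sort, Fabp4 was at 1044 against 119 CPM in the positive samples and at 333 against 187 CPM in the negative ones. Mrc1 was at 91.8 CPM against 951 CPM and Pf4 at 33.0 CPM against 4326 CPM. The hemoglobin gene Hbb-bs was at 10375 CPM against 223 CPM (2827 and 742 UMIs), and at 14501 CPM in positive but 102 CPM in negative Negr1 members. Without the 36 cells the difference in share between the sorts was 8.99 percentage points, with p = 0.00216 in the exact permutation test.

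**Figure D2:**
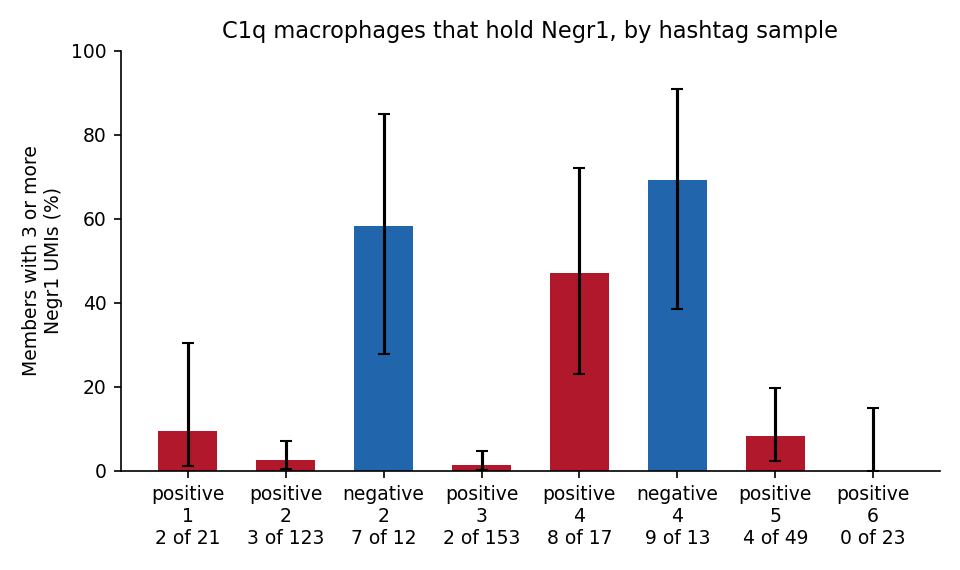
Percent of C1q macrophages with 3 or more Negr1 UMIs (vertical axis) in each hashtag sample with at least 10 members, biotin positive in red and biotin negative in blue, with 95% Clopper-Pearson intervals and the counts under each bar. Both negative samples and positive 4 lie between 47.1% and 69.2%, and the other positive samples at 9.52% or lower.

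Within C1q macrophages, 8 samples had at least 10 members, the 6 positive ones and negative 2 and negative 4. The 2 negative samples hold 25 cells and 103746 UMIs, against 386 cells and 3459923 UMIs in the 6 positive ones. Every gene difference between the sorts therefore rests on 25 negative cells, 16 of which held Negr1, and without Negr1 members no negative sample kept 10 cells, so the part of these cells in the differences was not tested. Of 4088 genes tested, 2 passed (0.0489%, edgeR quasi-likelihood test, adjusted p under 0.05), and both were higher in the positive sort. An unadjusted p under 0.05 was reached by 666 genes.

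Mrc1 was 1 of the 2. It encodes the mannose receptor, an endocytic receptor of tissue macrophages, on chromosome 2 (14229392 to 14332057, plus strand, mm10). Its level was 474, 1075, 818, 658, 1109 and 746 CPM in positive 1 to 6, and 35.3 and 42.4 CPM in negative 2 and negative 4, from 2 UMIs each. The groups were far apart, as the lowest positive sample lay above both negative ones. Its log2 fold change was 4.55 (SE 0.54, edgeR adjusted p = 0.00764), and the ratio of summed counts was 23.8 (95% counting interval 9.28 to 87.4).

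Ctsb, the other, encodes the lysosomal protease cathepsin B (chromosome 14, 63122462 to 63145923, plus strand, mm10). It was at 2592, 3209, 3221, 2699, 3165 and 3676 CPM in positive 1 to 6 and at 565 and 700 CPM in negative 2 and negative 4. The 6 positive samples were tightly grouped, at 3094 ± 395 CPM (SD, n = 6). The log2 fold change was 2.45 (SE 0.27, edgeR adjusted p = 0.00627). Leaving out negative 2 or negative 4 left 0 calls in edgeR, with 812 and 552 genes at an unadjusted p under 0.05, and adjusted p of 0.144 and 0.296 for Ctsb and of 0.146 and 0.349 for Mrc1. Each of these fits has 1 negative sample, assumed to vary like the positive ones. The fold changes kept their size there, at 2.39 and 2.66 for Ctsb and at 4.51 and 4.73 for Mrc1. Leaving out positive 4, the positive sample richest in Negr1 members, gave 78 calls (35 higher and 43 lower), the lower ones including Negr1 (-5.07 on the log2 scale, adjusted p = 0.00673 in edgeR).

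**Figure D3:**
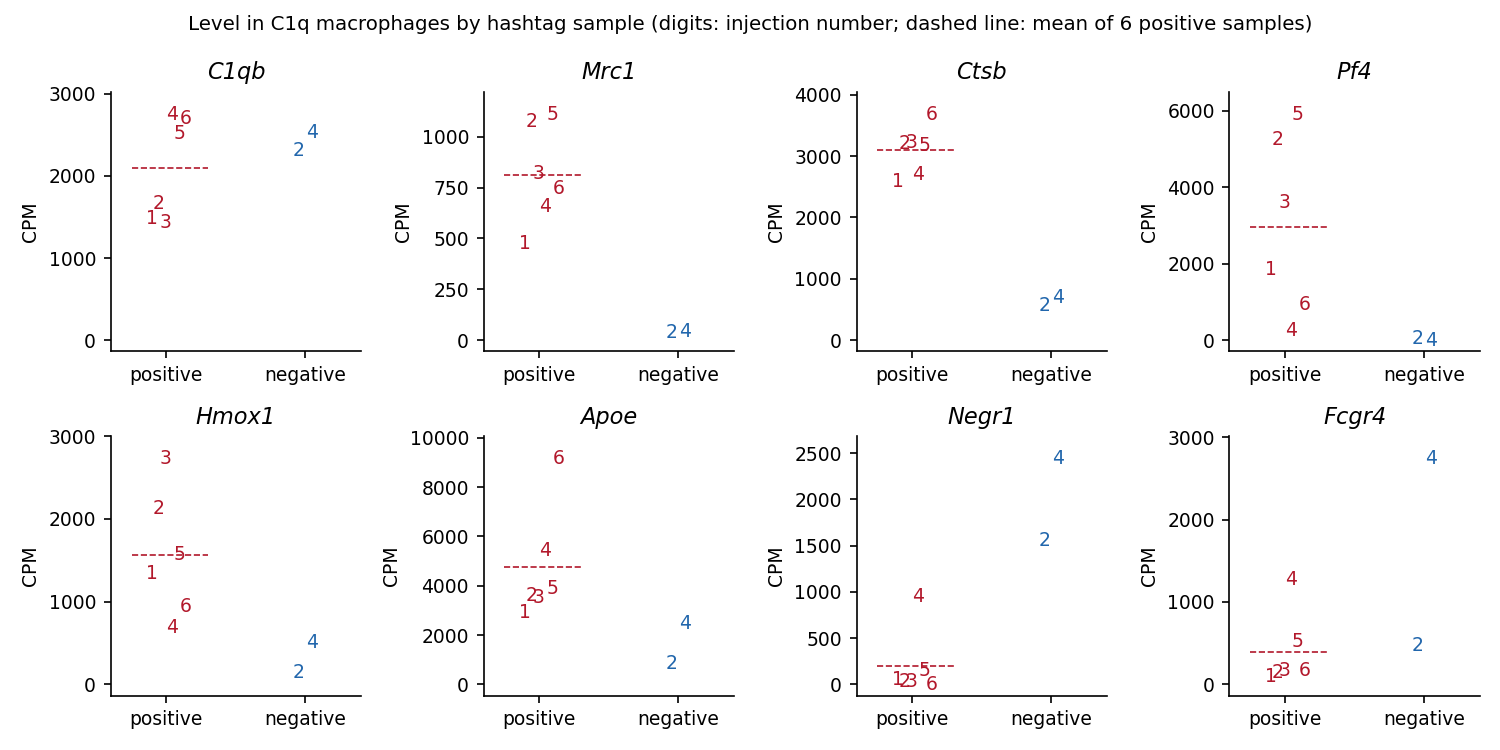
Level in C1q macrophages (CPM, vertical axes) of 8 genes, with each hashtag sample drawn as its injection number, biotin positive in red on the left and biotin negative in blue on the right, and the mean of the 6 positive samples dashed. Mrc1 and Ctsb do not overlap between the sorts, whereas C1qb does, and positive 4 lies closest to the negative samples for Negr1.

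C1qa ran from 1326 to 2510 CPM in the positive samples and was at 2173 and 1273 CPM in negative 2 and negative 4, so the groups overlapped in the amount of this gene, which the rule had used.

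With injection number as a block, 121 of 4088 genes passed (2.96%), 82 higher (2.01%) and 39 lower (0.954%). The blocked fit can compare the sorts only within injections 2 and 4 and has 1 residual degree of freedom. Without the 9 members that held 10 or more hemoglobin UMIs, 4 of them in positive 4, the blocked fit called 63 of 4144 genes (1.52%), 46 higher (1.11%) and 17 lower (0.41%), and 61 of the 121 were among them. An unadjusted p under 0.05 was reached by 537 and 354 genes in these 2 blocked fits. DESeq2 without the block called 91 (2.23%), 53 higher (1.3%) and 38 lower (0.93%). Groups that did not overlap were found for 24.1% of the 4088 genes, 10.3% with every positive sample above both negative ones and 13.8% below. The gene groups that follow were chosen with earlier results of these data known, and their counts are descriptions read against those shares.

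Lipid-associated macrophage genes, which macrophages use to take up and store fat, had all 18 members tested. In the blocked fit 9 were higher and none lower, and 10 of 18 had every positive sample above both negative ones. Without the 9 hemoglobin-rich members 7 were higher. The list's median log2 fold change in the fit without the block was 2.34, beside 0.10 over all genes tested. Apoe ranged from 2929 CPM in positive 1 to 9146 CPM in positive 6 and was at 848 and 2482 CPM in negative 2 and negative 4 (blocked log2 fold change 1.73, edgeR adjusted p = 0.00044). Without the hemoglobin-rich members the fold change was as large, at 1.83, and the call was lost (edgeR adjusted p = 0.138). Spp1, the secreted matrix protein osteopontin, was at 1090, 1000, 772, 9.54, 496 and 707 CPM in positive 1 to 6 and at 17.7 and 0 CPM in the negative samples. Positive 4 lay with the negative samples for Spp1, and over the fitted samples its summed-count ratio was 85.9 (95% counting interval 15.4 to 3396) from 1 negative UMI. Fabp5, a fatty acid carrier, was at 117 to 1507 CPM in the positive samples and at 17.7 and 42.4 CPM in the negative ones. Tyrobp, the adaptor that passes on the signal of Trem2, did not pass, and its positive samples ran from 2090 to 3038 CPM with the negative ones at 2738 and 3394 CPM.

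Chemokines that draw in myeloid cells had 14 of 16 members tested, of which 9 were higher and none lower in the blocked fit, and 4 had every positive sample above both negative ones. Without the hemoglobin-rich members 6 were higher. Their median log2 fold change without the block was 3.82. Pf4, a chemokine best known from platelets, was at 1839, 5249, 3610, 257, 5901 and 925 CPM in positive 1 to 6 and at 35.3 and 0 CPM in the negative samples. The positive samples were themselves far apart in Pf4, with positive 4 lowest, and the summed-count ratio between the sorts was 216 (95% counting interval 59.7 to 1781) from 2 negative UMIs. The platelet genes Gp9 and Gp1bb were at 0 in members. Ccl7 had 0 UMIs in both negative samples and 61.6 to 813 CPM in the positive ones, which makes its summed level at least 16.3-fold higher against a floor of 3 counts over the group. Cxcl2, which attracts neutrophils, was at 554, 934, 1543, 143, 1995 and 2230 CPM in positive 1 to 6 and at 0 and 42.4 CPM in the negative samples.

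Iron-handling genes had all 12 members tested, 7 higher and none lower in the blocked fit. Hba-a1, a red cell gene that the list holds as a sign of engulfed red cells, was 1 of the 7. Without the hemoglobin-rich members 11 were tested and 4 were higher, Hmox1 and Vcam1 among them (adjusted p = 0.0448 and 0.0119 in edgeR). Hmox1, which breaks down heme, was at 1346, 2122, 2728, 687, 1566 and 940 CPM in positive 1 to 6 and at 141 and 509 CPM in the negative samples. Vcam1, an adhesion molecule that marks resident macrophages of marrow, was at 180, 164, 518, 1087, 620 and 1313 CPM in positive 1 to 6 and at 141 and 0 CPM in the negative samples. Within injections 2 and 4, which alone the blocked fit compares, the 2 genes differed in where the sorts parted. Hmox1 was at 2122 against 141 CPM in injection 2 and at 687 against 509 CPM in injection 4. For Vcam1 these were 164 against 141 CPM and 1087 against 0 CPM. How far each call rests on 1 pair was not tested. The erythroid marker genes summed to 43212 CPM in positive 4, where Hmox1 was lowest of the positive samples and 4 of 17 members were hemoglobin-rich. They summed to 19.0 to 643 CPM in the other positive samples and to 0 and 212 CPM in the negative ones. Their relation to Hmox1 was not tested. A Hbb-bs UMI was found in 11.3% of members. Red cells were lysed during preparation where they were seen, per the labels.

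Lysosomal genes had 17 of 18 members tested, with 4 higher in the blocked fit (3 without the hemoglobin-rich members) and 9 above both negative samples. Ctsd, a lysosomal aspartic protease, was at 1763 to 3512 CPM in the positive samples and at 495 and 1442 CPM in the negative ones, and Lgmn, a lysosomal protease that activates cathepsins, at 849 to 1977 CPM and at 707 and 297 CPM. Without the hemoglobin-rich members Ctsd passed and Lgmn did not (adjusted p = 0.0346 and 0.16 in edgeR), although the blocked log2 fold change of Lgmn was 1.39 with and 1.63 without them. Psap, the saposin precursor, was abundant in both, at 4659 to 8463 CPM and at 4169 and 4200 CPM. Among genes of efferocytosis, the uptake of dying cells, 10 of 13 were tested and 3 were higher in the blocked fit, with and without those members. Among those 3 was Mertk, a receptor that recognises dying cells, at 125 to 505 CPM in the positive samples and at 35.3 and 21.2 CPM in the negative ones.

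The MHC class II list, of antigen presentation to helper T cells, had 8 of 10 members tested, none higher and 1 lower in the blocked fit, and 5 at an unadjusted p under 0.05. The list's median log2 fold change was -0.67 without the block and -0.86 with it. Without the hemoglobin-rich members 9 were tested and 0 passed in edgeR, with 1 at an unadjusted p under 0.05, and DESeq2 also called 0 with 1 at that level. The 1 lower gene, H2-DMb1, which helps load peptides, had a blocked log2 fold change of -2.03 with and -1.91 without those members (edgeR adjusted p = 0.019 and 0.0784). Cd74, the class II invariant chain, was at 2450, 2838, 3547, 3109, 3398 and 7188 CPM in positive 1 to 6 and at 8816 and 3288 CPM in negative 2 and negative 4. The sorts overlapped there, since positive 3, positive 5 and positive 6 exceeded negative 4. Of the 10 MHC class I genes, 0 passed in edgeR or in DESeq2, with 1 at an unadjusted p under 0.05 in edgeR and 2 in DESeq2, and 5 lay below both negative samples. B2m, the class I light chain, was at 2108 to 2510 CPM in the positive samples and at 3145 and 2949 CPM in the negative ones.

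Cell cycle genes had 13 of 18 members tested and 3 higher in the blocked fit, with 12 at an unadjusted p under 0.05. Without the hemoglobin-rich members 1 was higher and 3 reached an unadjusted p under 0.05. Mki67, a marker of dividing cells, was at 31.1 to 184 CPM in the positive samples and at 17.7 and 0 CPM in the negative ones, and its blocked log2 fold change was 4.22 with and 3.23 without those members (edgeR adjusted p = 0.00214 and 0.234). All 18 cell cycle genes were lower in members than in the monocyte gate, where Mki67 was at 295 CPM.

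Of the complement genes apart from C1q, 1 of 9 tested was higher, Cfp, which encodes properdin, the stabiliser of the alternative pathway, at 366 to 575 CPM in the positive samples and at 212 and 63.6 CPM in the negative ones. Its blocked log2 fold change was 1.89 with and 1.94 without the hemoglobin-rich members, where it did not pass (adjusted p = 0.0677 in edgeR). The cytokine and growth factor receptors (14 of 17 tested), the suppressive signals and checkpoint ligands (11 of 15) and the stress genes (16 of 17) had 0 calls in the blocked fit and in DESeq2, with 3, 0 and 2 genes at an unadjusted p under 0.05 in the blocked edgeR fit. None of the 13 cholesterol synthesis genes passed the filter on low counts.

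Genes lower in the positive sort in the blocked fit included Sox5, Clec4b1 and Cd300e, which were high in Negr1 members. They were at 804, 389 and 341 CPM there and at 2.41, 16.8 and 3.01 CPM in the other members. With a mean of at least 50 CPM, the 12 with the most negative log2 fold change included Klra17 (-3.89), Negr1 (-3.37), Sirpb1a (-3.11), Fcrl5 (-3.09), Sox5 (-3.09), Clec4b1 (-2.82) and Cd300e (-2.62). These 7 passed without the hemoglobin-rich members too. Negr1 was at 52.1, 26.0, 32.2, 954, 154 and 0 CPM in positive 1 to 6 and at 1555 and 2439 CPM in negative 2 and negative 4. Positive 4 again lay closest to the negative samples. Marker sums of other cell types also differed between the sorts: the B cell and plasma list summed to 37.9 to 190 CPM in the positive samples and to 442 and 424 CPM in the negative ones, and the endothelial list to 19.3 to 153 CPM and to 212 and 233 CPM, with Emcn, Cldn5 and Tek at 0. The osteoclast list summed to 171 to 486 CPM and to 583 and 636 CPM. Higher in the positive samples were the T and NK list, at 69.5 to 242 CPM against 35.3 and 42.4 CPM, and the platelet list, which holds Pf4, at 267 to 5943 CPM against 35.3 and 0 CPM. The neutrophil list ranged from 1028 to 32497 CPM in the positive samples and was at 24751 and 2524 CPM in the negative ones. The part of these genes in the differences was not tested.

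A test of whether the biotin difference of C1q macrophages differed from that of monocytes used 8 macrophage and 10 monocyte columns. It called 1 of 9741 genes (0.0103%), Ahcyl2, which encodes a regulator of ion transport, whose log2 fold changes differed by 3.33 between the gates (SE 0.52, adjusted p = 0.0293 in edgeR). Ahcyl2 was at 75.8 to 109 CPM in the 6 positive macrophage samples and at 17.7 and 21.2 CPM in the negative ones, from 1 UMI each. In monocytes it ran from 52.6 to 76.1 CPM in 4 positive and from 81.4 to 124 CPM in 6 negative samples. The call was lost with the replicate block (0 calls in edgeR, 1127 genes at an unadjusted p under 0.05, adjusted p = 0.0904 for Ahcyl2), and DESeq2 without the block called 37 genes, Ahcyl2 not among them (adjusted p = 0.099). Leaving out positive 3 gave 337 calls and leaving out positive 4 gave 10, whereas leaving out positive 1, positive 5, negative 2 or negative 4 gave 0.

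Mrc1 was not shown to differ between the gates. In monocytes, where 1900 of 9024 genes passed (21.1%), Mrc1 was higher in the positive sort by 3.28 on the log2 scale (SE 0.90, adjusted p = 0.0233 in edgeR), and the difference from macrophages was 1.44 (SE 1.69, adjusted p = 0.761). Pf4 and Spp1 were also higher in positive monocytes, by 4.55 and 3.45 on the log2 scale (edgeR adjusted p = 0.0115 and 0.0383). The levels were low: Mrc1, Pf4 and Spp1 were at 15.2, 80.3 and 124 CPM in the whole monocyte gate. In B cells they were at 16.4, 133 and 92.6 CPM. The part of RNA carried over from other cells in these monocyte differences was not tested. For Ctsb the monocytes gave 0.29 (SE 0.48, edgeR adjusted p = 0.71) and the difference was 2.35 (SE 0.70, edgeR adjusted p = 0.188), so a difference between the gates was not shown for Ctsb either.

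The same gate, applied to bone, brain, liver and lung after intracardiac injection (4 positive and 4 negative samples each), took in 3419 of 55366 kept cells. Those libraries were 3′ and written by another Cell Ranger version than the 5′ pool, and such differences cannot be told apart from those of the injections, so values stand side by side with no test. In intracardiac bone the gate held 7.17%, 26.1%, 0.645% and 0.347% of the 4 positive samples and 0.0675% to 0.368% of the 4 negative ones. The 2 intracardiac positive bone samples with at least 10 cells had Mrc1 at 711 and 3281 CPM and Vcam1 at 1606 and 9546 CPM. In the 4 positive samples of each other tissue the gate held 1.73% to 6.83% of cells in lung, 33.9% to 72.4% in brain, where microglia carry C1q, and 11.7%, 69.5%, 8.08% and 0% in liver. Of the 416 members, 1 shared its barcode with a cell of an intracardiac sample.

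**Figure D4:**
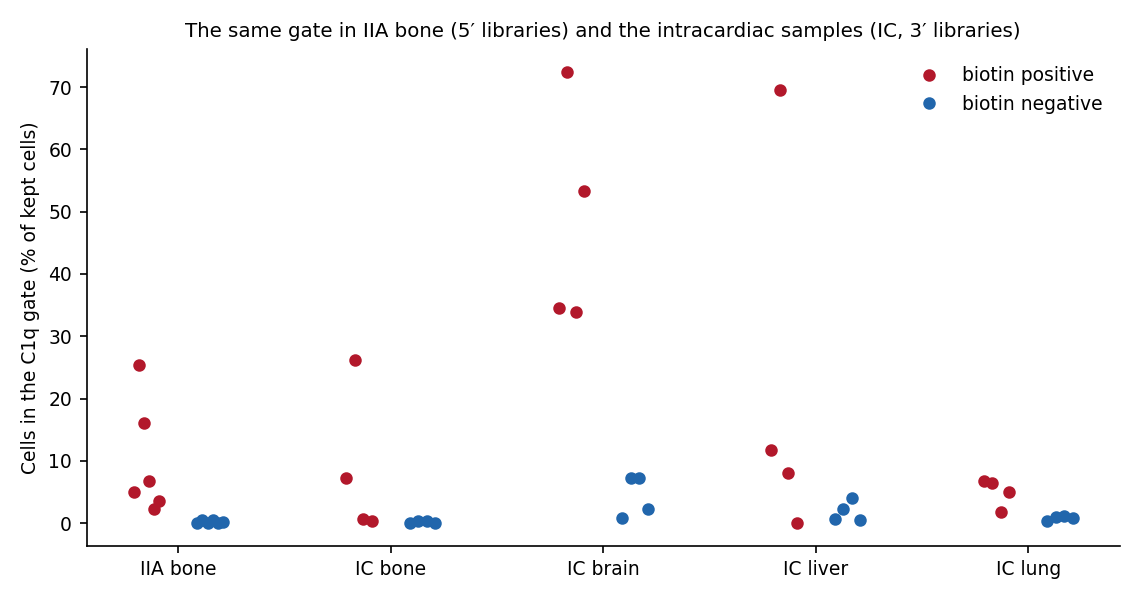
Cells in the C1q gate (percent of kept cells, vertical axis) in each sample of IIA bone and of the intracardiac (IC) tissues, biotin positive in red and biotin negative in blue, 1 point per sample. IIA bone runs from 2.29% to 25.4% in the positive sort, intracardiac brain from 33.9% to 72.4%, and intracardiac liver from 0% to 69.5%.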

How the data were processed

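The pooled bone library was deposited by the authors as raw UMI counts per gene and barcode, with hashtag counts beside them, written by Cell Ranger 7.1.0 per the file headers (6.1.2 for the intracardiac samples). The submitters' processing notes name mm10 and Seurat. A barcode was given to its top hashtag at 10 or more counts and 3 times the second, with hashtag features matched to sample names by number, and kept at 500 or more UMIs, 200 or more genes and at most 15% mitochondrial UMIs. This left 22362 of 26666 barcodes, 249 to 3480 per hashtag sample at median depths of 2532 to 10766 UMIs. No doublets were removed beyond hashtag assignment, and 21 cells with Cd79a or Cd3e were left out of the gate.

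Members' counts were summed per hashtag sample with at least 10 members and tested with edgeR 4.0.16 (quasi-likelihood, TMM, filterByExpr, Benjamini-Hochberg adjustment over all genes tested, calls at 0.05). DESeq2 1.42.0 was an alternative. Shares were compared by exact permutation tests. The tests were run on simulated counts first: in the biotin comparison edgeR recovered 47.8% of genes changed by 2 and 83.5% of those changed by 3 on the log2 scale, over 3591 genes. In the comparison with monocytes it recovered 20.4% and 55.2%, over 9216 genes. Injection numbers were treated as pairing the sorts in the sign-flip test and the blocked fits only. The main gene fit and the permutation tests did not use them. Same-numbered samples deviated together in 6 of 6 pairs (correlation 0.132 to 0.640 over 6448 genes of all kept cells), although a sample correlated best with its own number in 3 of 6. Named genes were the rule genes, Esr1, the most changed called genes of each comparison (12 or 8 each way, at least 50 CPM), up to 4 called members or the 2 most abundant of each list, and the 25 genes most concentrated in members; the others named by value, Negr1 members included, were chosen after their values were seen. A planned comparison within members, and a few genes, are not reported here. Members and gene lists were chosen with earlier results of these data known.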

Additional observations from a re-analysis of the deposited data

Results flagged for a closer look

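Among 42 groups of values examined for a sample far from the others, 6 held one. Chance alone gives about 1 in 20 such groups where they are independent and chosen beforehand. These groups share samples and cells, and some genes were chosen after their values were seen, so the 6 cannot be read against that rate. In C1q macrophages of positive 6, Cd74 was at 7188 CPM and H2-Aa at 2782 CPM, both far above the other 5 positive samples. In positive 4, Negr1 was at 954 CPM, Fcgr4 at 1278 CPM and the hemoglobin gene Hbb-bs at 27247 CPM, and 47.1% of members held 3 or more Negr1 UMIs.

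Ahcyl2 had a biotin difference in C1q macrophages 3.33 higher on the log2 scale than in monocytes, from 1 UMI in each negative macrophage sample, and its call was lost in 8 of 19 alternatives, among them the replicate block (edgeR adjusted p = 0.0904, with a range of 0.00169 to 0.317 over the 19). Of 3824 barcodes that passed the cell filters without a hashtag assignment, 15 (0.392%) met the C1q gate, and they entered no comparison.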

How the results depend on the processing

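The difference in share kept its direction and its side of the threshold under every alternative run, from 2.65 percentage points without members holding neutrophil RNA to 63.0 among C1q macrophages and monocytes (an alternative chosen after seeing the data), with 6.57 to 11.2 when single samples were left out. For genes between the sorts, the 2 calls became 121 with the replicate block, 63 with the block and without hemoglobin-rich members (chosen after seeing the data), 91 with DESeq2, 117 without a filter on low counts, and 0 to 78 when single samples were left out. For the difference from monocytes, the 1 call became 0 with the replicate block, 37 with DESeq2, 0 without TMM, 2 without a filter, 0 with the C1q gate at 1 UMI, and 0 to 337 when single samples were left out (unadjusted p under 0.05 in 1127, 991 and 1134 genes for the edgeR settings with 0 calls, besides those left out). The cause of these shifts was not tested. For Mrc1, Ctsb and Ahcyl2, the genes called without the block, 43 of 55 values kept their side of the threshold, 12 lost it and 0 changed sign. Of the 121 blocked calls, 117 could be tested without hemoglobin-rich members, 61 passed again and 0 changed sign, and no other alternative was run with the block.

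The biotin and monocyte comparisons could not be fitted with the C1q gate at 4 UMIs, without cells holding neutrophil RNA or with 30 cells a sample. The 25 negative members limit the depth: with 103746 UMIs, 3 counts correspond to 28.9 CPM.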

Other observations

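Among the 380 members without 3 Negr1 UMIs, the 13 from the negative sort had Mrc1 at 153 CPM, Ctsb at 764 CPM and H2-Aa at 3006 CPM, and the 367 from the positive sort had 965, 3283 and 1343 CPM. Among the 36 with Negr1, Ctsb was at 679 CPM in the 17 negative and 1348 CPM in the 19 positive cells. These are sums over cells of several samples, with no test.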
